A study of Macaca mulatta with 9 samples.

Results

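A set of 9 genes widely used as marks of the pluripotent state, other than the core factors POU5F1, SOX2 and NANOG, were followed across rhesus macaque embryonic stem (ES) cells and differentiated cells. They were the transcriptional regulators PRDM14, SALL4, ZFP42, OTX2 and KLF4, the chromatin protein DPPA4, the telomere proteins TERT and TERF1, and the RNA-binding protein L1TD1. They were chosen by name and taken from the arrays by the gene symbols of the deposited annotation, with REX1 read as ZFP42 and FLJ10884 as L1TD1. In all 8 of the 9 genes, of 19751 genes on the arrays, were found by symbol, with 17 probe sets between them. L1TD1 was not found under either symbol and is not analysed here.

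Expression was measured on 9 Affymetrix Rhesus arrays. The ES cells came from 5 lines (ORMES6, ORMES7, ORMES9, ORMES10 and ORMES13), kept with FGF2 on mouse embryonic fibroblast feeders that had been made unable to divide. Well-formed colonies were picked from the feeders by hand. The line ORMES6 has 3 arrays, labelled as biological replicates A to C, and ORMES7, ORMES9, ORMES10 and ORMES13 have a single array per line. Differentiation was represented by a single array of pooled embryoid bodies (EBs), which are aggregates of ES cells left to differentiate, here for 30 days without FGF2, and by a single array of adult skin fibroblasts collected at confluence. The labels describe the EB culture in 2 ways, as 30 days in low-adhesion dishes and as 1 week in suspension followed by 30 days on gelatin. The genotype and strain of the animals, and the lines from which the EBs came, are not given in the sources used here.

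Pluripotent cells keep a network of transcription factors switched on that holds them undifferentiated, and most members of it are silenced as cells adopt a fate. In mouse, KLF4 and ZFP42 are known as marks of the naive state of the early epiblast, whereas OTX2 marks the later, primed epiblast and then the forebrain and eye. Telomerase, whose catalytic protein is TERT, maintains chromosome ends in cells that divide without limit, and TERF1 is the shelterin protein that binds the double-stranded telomere repeat.

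The labels were checked against marker genes. On the ES arrays the summed signal of POU5F1, SOX2, NANOG and LIN28A was 14669 to 23918, against 2279 in EBs and 26.7 in fibroblasts. The summed signal of 10 fibroblast markers was 4053 to 17094 on the ES arrays, with every marker above a signal of 50 on at least 1 of them, 33427 in EBs and 44660 in fibroblasts. Of these 10, 3 were lower in ES lines than in fibroblasts at an adjusted p under 0.05 (limma), beside 7.89% of all genes. They were FAP (difference -7.49 ± 0.71 on the log2(signal + 16) scale, adjusted p = 0.000300), PRRX1 (-5.96 ± 1.06, adjusted p = 0.00548) and LOX (-5.59 ± 0.88, adjusted p = 0.00327). THY1 alone was higher in the ES lines, by 1.93 ± 0.29 (limma, adjusted p = 0.00250), beside 13% of all genes. COL1A1, COL1A2, COL3A1, PDGFRA, PDGFRB and TWIST1 did not pass against fibroblasts. Against EBs, FAP (-6.41 ± 0.71, adjusted p = 0.00453) and LOX (-5.04 ± 0.88, adjusted p = 0.0195) were lower in ES lines (limma). This was 2 of the 10, beside 2.9% of all genes. The actin probe sets at the 3′ end exceeded those at the 5′ end by a factor of 22.7 to 66.2 for ES cells, 7.16 for EBs and 13.1 for fibroblasts, and this difference cannot be told apart from cell type. For GAPDH the factor was 2.55 to 5.20 for ES cells, 1.61 for EBs and 2.74 for fibroblasts, so that fibroblasts lay within the ES range. The hybridisation spikes, transcripts added before hybridisation, had a geometric mean signal of 571 to 1157 with ES RNA, 505.7 with EB RNA and 873.6 with fibroblast RNA.

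Values below are MAS5 signals (linear, arbitrary units) per array. Differences are on the log2(signal + 16) scale, ES lines minus the other sample, with the standard error (SE) of the limma fit. The lines were the replicates (n = 5, ORMES6 as the mean of its arrays), and the lone EB and fibroblast arrays were assumed to vary as the lines do. A gene was called at an adjusted p under 0.05 over all 19751 genes. On these bulk arrays, fewer cells that express a gene and less RNA per cell cannot be told apart.

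Against skin fibroblasts, 5 of the 8 genes were higher in the ES lines, namely PRDM14, SALL4, DPPA4, OTX2 and TERF1, beside 13% of all genes. Only KLF4 of the 8 was lower, beside 7.89% of all genes. Together 6 of 8 were called, beside 20.8% of all genes. ZFP42 and TERT did not pass the test. Against EBs, PRDM14, SALL4, DPPA4 and TERF1 were higher in the ES lines, 4 of 8 beside 2.76% of all genes, and none of the 8 was lower, beside 2.9% of all genes. Calls in either direction made up 5.66% of all genes there. The median difference over the 8 genes was 2.87 against fibroblasts and 1.84 against EBs, where that over all genes was 0.25 and 0.04. The fibroblast signal lay below all 7 ES arrays for 5 of the 8 (36.3% of all genes) and above all of them for KLF4 (18.2% of all genes). The EB signal lay below all 7 for the same 5 (21.1% of all genes) and above all for KLF4 (21.5% of all genes). Both lay below for these 5, as for 14.0% of all genes.

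**Figure D1:**
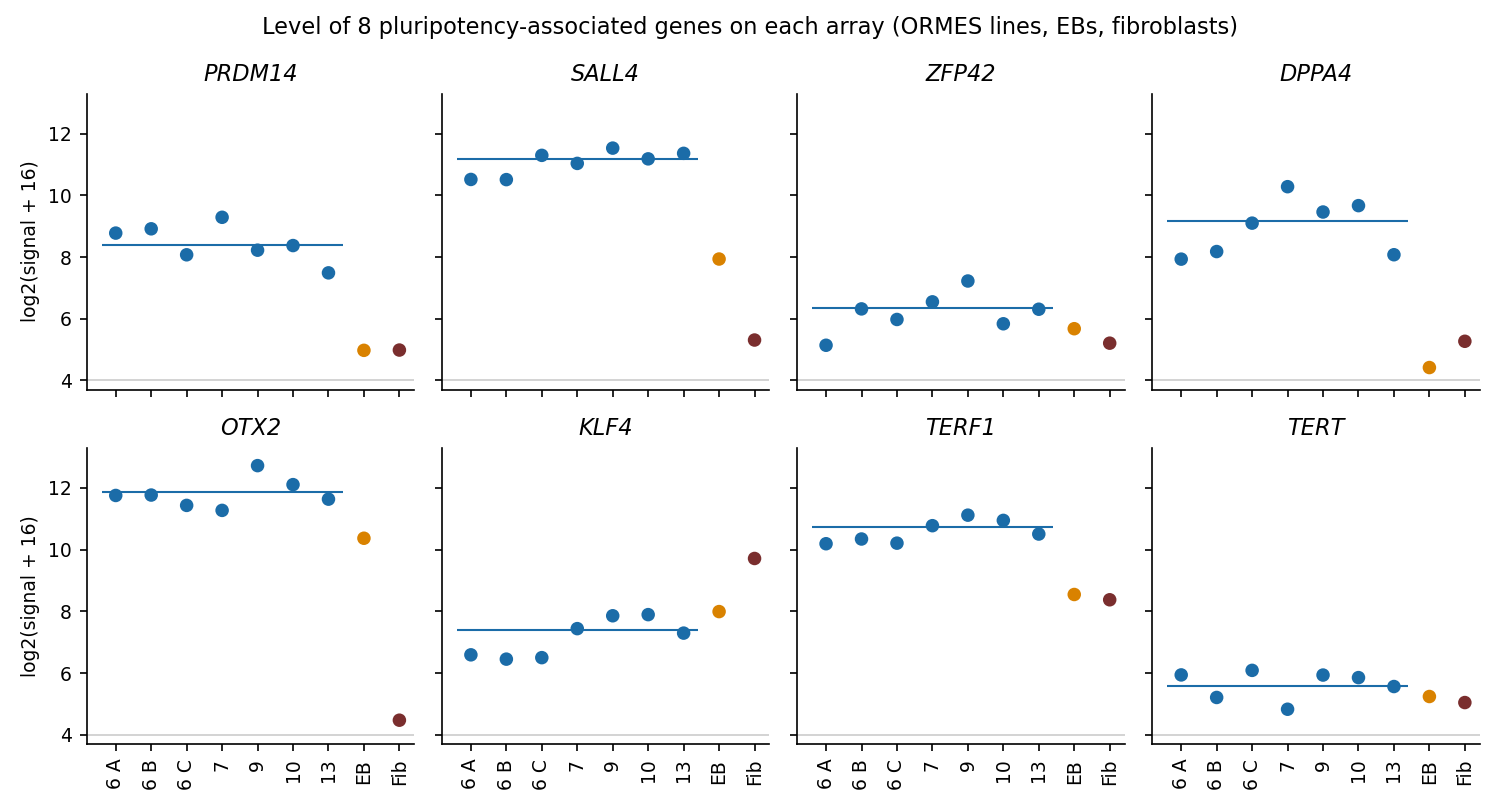
Level of each gene on the log2(signal + 16) scale (vertical axis) on each array (horizontal axis, the 7 ORMES arrays in blue, EBs in orange, fibroblasts in brown). The blue line is the mean of the 5 ES lines, and the grey line at 4 is a signal of 0. PRDM14, SALL4, DPPA4, OTX2 and TERF1 lie above both differentiated arrays on every ES array, and KLF4 lies below them.

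With the level of the hybridisation spikes as a covariate, none of the 4 EB calls was made, with adjusted p = 0.0796 for PRDM14, 0.0875 for SALL4, 0.176 for DPPA4 and 0.309 for TERF1 (limma), and 0.0304% of all genes were called. The 4 differences then were 4.85 ± 0.93 for PRDM14, 2.30 ± 0.45 for SALL4, 5.08 ± 1.42 for DPPA4 and 1.58 ± 0.60 for TERF1. Each SE was wider than without the covariate, and the differences of PRDM14 and DPPA4 were larger and those of SALL4 and TERF1 smaller. Among the genes not called, ZFP42 turned to -0.61 against EBs with the covariate, KLF4 moved to -1.75, OTX2 to 0.66 and TERT to 0.08. All 6 calls against fibroblasts held with this covariate.

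**Figure D2:**
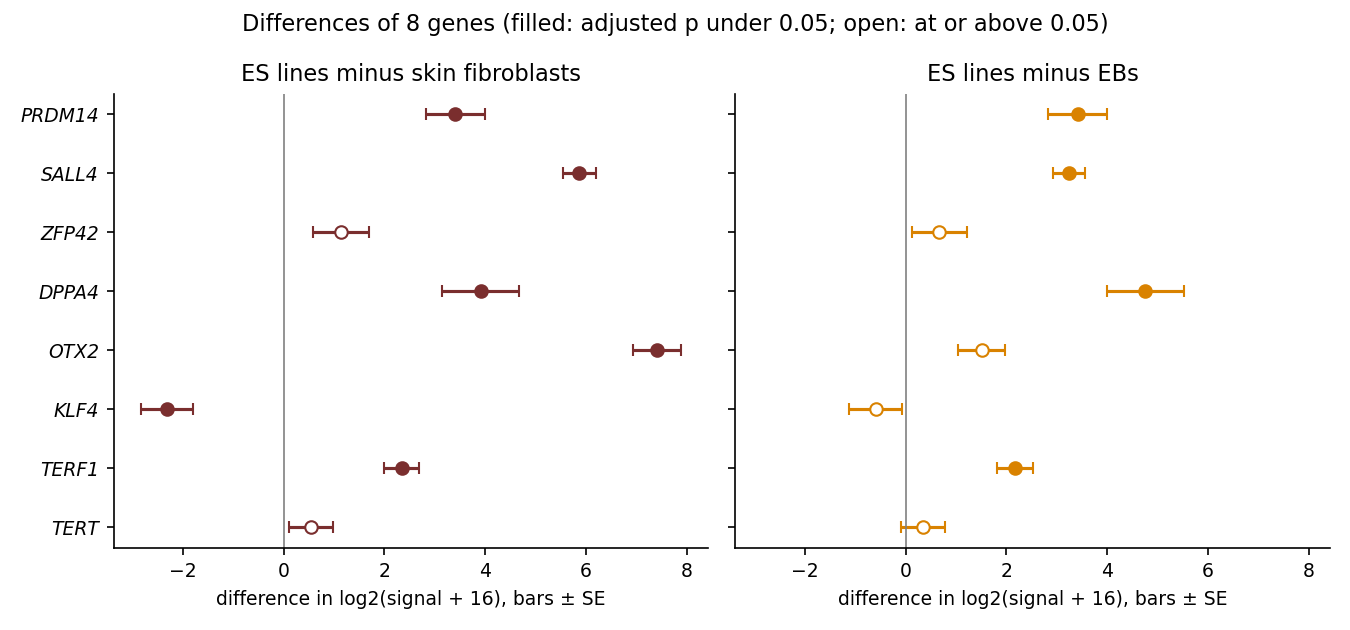
Difference of the ES lines from skin fibroblasts (left) and from EBs (right) on the log2(signal + 16) scale, with bars of ± 1 SE. Filled points have an adjusted p under 0.05. PRDM14, SALL4, DPPA4 and TERF1 are filled on both sides, OTX2 and KLF4 only against fibroblasts, and ZFP42 and TERT on neither.

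PRDM14, a zinc finger protein of the PR domain family, is needed in human ES cells to keep POU5F1 active and in mouse for primordial germ cells. Its signal was 422.5, 466.8 and 253.3 on ORMES6 A, B and C, 609.3 in ORMES7, 282.7 in ORMES9 and 315.4 in ORMES10, with 163.5 in ORMES13, against 15.5 in EBs and 15.7 in fibroblasts. Every ES array lay far above the differentiated arrays, and those were close to each other. The probe set was Present on all 5 ES arrays with a detection p-value and Absent in fibroblasts (the authors' detection p = 0.5). PRDM14 was higher in ES lines by 3.41 ± 0.59 than in fibroblasts (limma, adjusted p = 0.00483), an estimated 10.6-fold. It was also higher by 3.41 ± 0.59 than in EBs (limma, adjusted p = 0.0186).

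Among 12 relatives of PRDM14 (other PRDM genes and its cofactor CBFA2T2), PRDM16 alone passed the test. This was 1 of 12, beside 20.8% of all genes called against fibroblasts and 5.66% against EBs. PRDM16, a regulator of brown fat and neural fates, was lower in ES lines than in fibroblasts (difference -2.54 ± 0.27, adjusted p = 0.000454) and than in EBs (difference -1.74 ± 0.27, adjusted p = 0.0135). CBFA2T2 differed by 0.95 ± 0.34 from fibroblasts (adjusted p = 0.0876) and did not pass. The germ cell markers gave 1 call of 8 in each comparison, beside 13% of all genes higher against fibroblasts and 2.76% against EBs. The transcription factor TFAP2C was higher in ES lines by 1.78 ± 0.41 than in fibroblasts (limma, adjusted p = 0.0173) and by 2.04 ± 0.41 than in EBs (limma, adjusted p = 0.0303). Of these 8 markers, 5 stayed under a signal of 50 on every ES array.

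SALL4, a spalt-type zinc finger protein that binds AT-rich DNA and is needed by early embryonic cells, had graded levels. Its signal was 1447.2, 1441.7 and 2497.5 on ORMES6 A, B and C, 2081.8 in ORMES7, 2941.9 in ORMES9 and 2307.5 in ORMES10, with 2613.4 in ORMES13, against 228.9 in EBs and 23.7 in fibroblasts. The ES arrays were highest, EBs stood between, and fibroblasts were lowest although still Present (the authors' detection p = 0.0193). The ES lines were 58.3-fold above fibroblasts (5.87 ± 0.32, adjusted p = 2.73e-05) and 9.45-fold above EBs (3.24 ± 0.32, adjusted p = 0.00318), on the log2(signal + 16) scale. EBs lay 2.62 above fibroblasts, a comparison of single arrays with no test.

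Of 16 relatives of SALL4, KLF4 and OTX2, 4 were higher in ES lines than in fibroblasts, beside 13% of all genes. Only 1 (KLF9) was lower, beside 7.89% of all genes, and the rest did not pass. The other spalt genes were among the 4. SALL3 was higher in ES lines by 5.28 ± 0.48 (adjusted p = 0.000240), SALL1 by 5.08 ± 0.38 (adjusted p = 0.000102) and SALL2 by 3.24 ± 0.34 (adjusted p = 0.000427). The homeobox gene GSC, of the same list, was higher by 4.36 ± 0.78 (adjusted p = 0.00559). Against EBs, SALL3 was higher by 2.08 ± 0.48 (limma, adjusted p = 0.0452). It was the only call among the 16 relatives of SALL4, KLF4 and OTX2 in that comparison, beside 5.66% of all genes.

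DPPA4, a nuclear protein that acts with DPPA2 at developmental gene promoters, had the widest range between ES arrays among the 8 probe sets that stood for their genes. Its signal was 228.3, 273.7 and 532.4 on ORMES6 A, B and C, 1227.7 in ORMES7, 688.1 in ORMES9 and 796.6 in ORMES10, with 253.7 in ORMES13, against 5.4 in EBs and 22.6 in fibroblasts. Both differentiated arrays were low, the EB array lower than the fibroblast array, where the probe set was Absent (the authors' detection p = 0.399). DPPA4 was higher in ES lines by 4.76 ± 0.76 than in EBs (adjusted p = 0.0150) and by 3.91 ± 0.76 than in fibroblasts (adjusted p = 0.00809). Against fibroblasts this is an estimated 15.0-fold. The second DPPA4 probe set had signals of 1.0 to 27.0 on the ES arrays, 14.4 in EBs and 0.6 in fibroblasts, and was Absent on 4 of 5 ES arrays.

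DPPA2, the partner of DPPA4, did not pass either test: it differed by 0.65 ± 0.49 from fibroblasts (adjusted p = 0.399) and by 1.14 ± 0.49 from EBs (adjusted p = 0.220).

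ZFP42 (REX1), a zinc finger protein related to YY1, had low signals everywhere. On its most abundant probe set the signal was 19.3, 63.9 and 47.0 on ORMES6 A, B and C, 77.6 in ORMES7, 133.5 in ORMES9 and 41.2 in ORMES10, with 63.3 in ORMES13, against 35.2 in EBs and 21.0 in fibroblasts. The ES arrays overlapped both differentiated arrays. The difference was 1.14 ± 0.55 from fibroblasts (adjusted p = 0.188) and 0.67 ± 0.55 from EBs (adjusted p = 0.544), with 95% intervals of -0.12 to 2.39 and of -0.58 to 1.92.

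ORMES9 had the highest ZFP42 signal on all 3 probe sets. On the second it had 165.8, where the other ES arrays had 11.8 to 41.9, EBs 21.3 and fibroblasts 7.4. On the third it had 63.9, where the other ES arrays had 1.3 to 24.4, EBs 1.8 and fibroblasts 1.2. ORMES9 was Present on all 3. The first probe set was Present on 4 of 5 ES arrays, all but ORMES10, and the second was otherwise Present only in ORMES13. In the authors' deposited table these 2 probe sets had signal log ratios over EBs of 2.6 and 5.1 in ORMES9, both with a change call of increase, and the other 6 ES arrays carried calls of no change. The F test between lines gave adjusted p = 0.282 for the second probe set and 0.443 for the third (limma, over all probe sets, of which 0.104% were called), so neither passed.

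**Figure D3:**
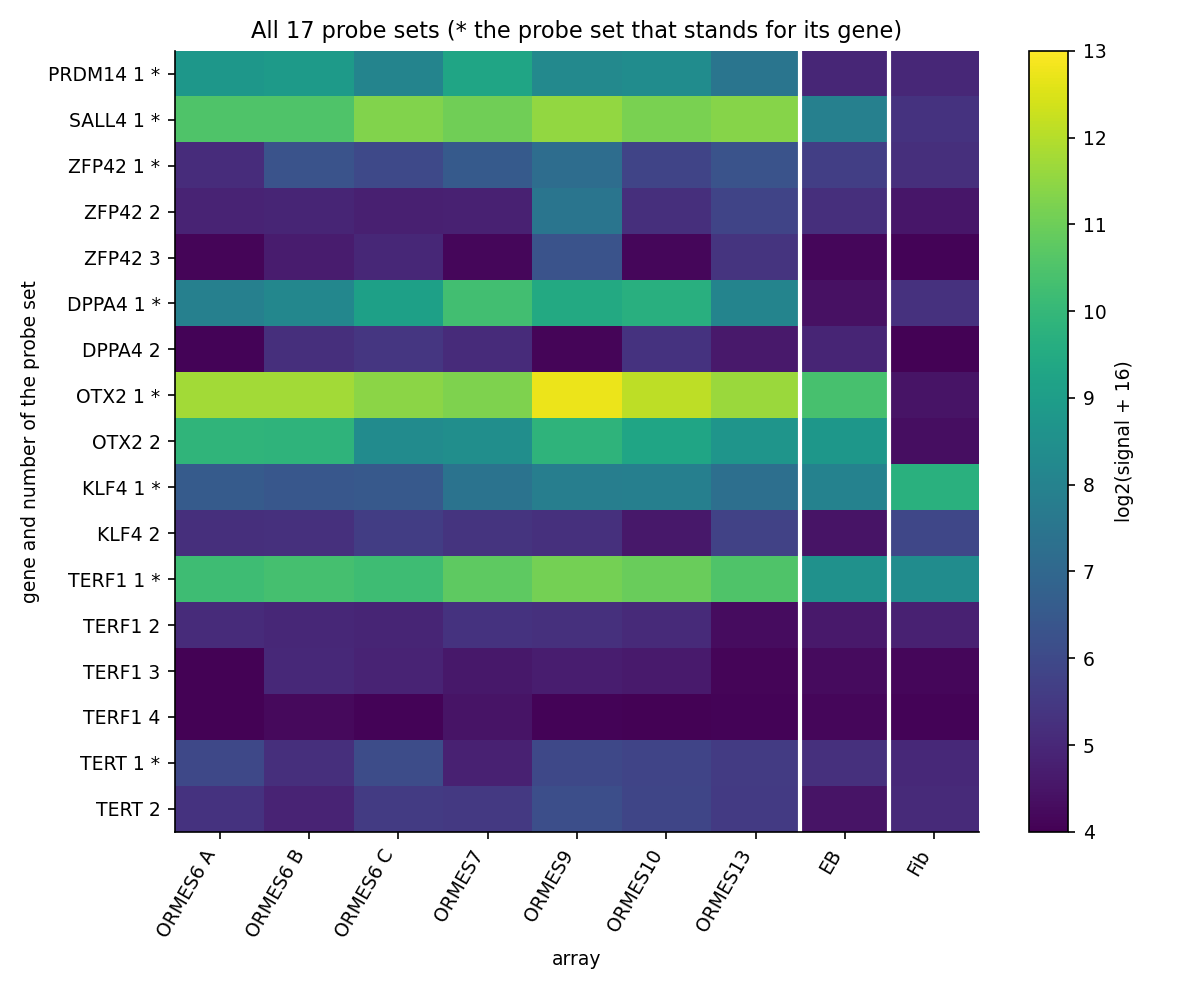
Level of all 17 probe sets (rows, grouped by gene, with a star on the probe set that stands for its gene) on the 9 arrays (columns, ES lines left, then EBs and fibroblasts), coloured on the log2(signal + 16) scale. Both OTX2 probe sets are dark only in fibroblasts, the 3 ZFP42 probe sets are brightest in ORMES9, and 3 of 4 TERF1 probe sets are dark on every array.

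OTX2, a homeobox protein, was the gene with the largest difference from fibroblasts of the 8. Its signal was 3440.8, 3473.0 and 2749.7 on ORMES6 A, B and C, 2456.6 in ORMES7, 6740.0 in ORMES9 and 4393.0 in ORMES10, with 3165.5 in ORMES13, against 1306.3 in EBs and 6.2 in fibroblasts. EBs were thus high as well, though below every ES array, and the fibroblast signal was Absent (the authors' detection p = 0.340). OTX2 was higher in ES lines than in fibroblasts by 7.41 ± 0.47 (limma, adjusted p = 5.05e-05), an estimated 169-fold. Against EBs the difference was 1.51 ± 0.47 and did not pass (adjusted p = 0.109), with a 95% interval, not adjusted for the number of genes, of 0.43 to 2.59.

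The second OTX2 probe set had signals of 308.8 to 934.1 on the ES arrays, 417.8 in EBs and 4.1 in fibroblasts. Here the EB array lay within the range of the ES arrays (difference 0.37 ± 0.50, adjusted p = 0.781 over all probe sets), and the difference from fibroblasts was 4.81 ± 0.50 (adjusted p = 0.000457). Over all probe sets 2.44% were called against EBs and 11.9% against fibroblasts. EBs lay above fibroblasts by 5.90 on the first probe set, with no test.

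OTX2 is also used in forebrain, eye and endoderm, so markers of those tissues were read beside it. Of 13 forebrain and eye markers measured, PMEL alone passed against fibroblasts, beside 13% of all genes higher there. PMEL was higher in ES lines by 2.77 ± 0.31 (limma, adjusted p = 0.000635). None of the 13 passed against EBs, beside 5.66% of all genes. The largest difference from EBs was that of PAX6, at -3.17 ± 0.80 (adjusted p = 0.0574). The summed signal of these 13 genes was 1545 to 2082 on the ES arrays, 2681 in EBs and 695 in fibroblasts, and 9 of the 13 were under 50 in EBs. No listed gene was at 0, and the part of these cells in the OTX2 level was not tested.

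Of 9 endoderm markers, SOX17, FOXA2, GATA4 and CXCR4 were higher in ES lines than in fibroblasts, by 3.76 ± 1.02 for SOX17 (limma, adjusted p = 0.0326). This was 4 of 9, beside 13% of all genes. None of the 9 passed against EBs, beside 5.66% of all genes. The liver and yolk sac proteins TTR and APOA1 were called in the limma F test between ES lines, beside 0.197% of all genes. Their ranges over the lines were 6.12 (adjusted p = 0.0425) and 5.33 (adjusted p = 0.0348). The error of this F test comes only from the 3 ORMES6 arrays. Without ORMES6 A or without ORMES6 B, 0 of all probe sets were called between lines. The summed signal of the 9 markers was 4753, 4779 and 2376 on ORMES6 A, B and C, 1287 in ORMES7, 9666 in ORMES9 and 6155 in ORMES10, with 10379 in ORMES13, against 3225 in EBs and 1678 in fibroblasts. ORMES7 was lowest of the lines for both OTX2 and these markers. ORMES9 was highest for OTX2, whereas ORMES13 was highest for the markers with an OTX2 signal near that of ORMES6. The part of endoderm-like cells in the OTX2 levels was not tested.

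KLF4, a zinc finger protein that was used to reprogram somatic cells and that also acts in epidermis and in growth-arrested fibroblasts, ran the other way. Its signal was 80.4, 71.5 and 74.5 on ORMES6 A, B and C, 157.6 in ORMES7, 215.8 in ORMES9 and 221.8 in ORMES10, with 141.0 in ORMES13, against 238.6 in EBs and 823.4 in fibroblasts. All ES arrays lay below EBs, with ORMES10 and ORMES9 close to them, and fibroblasts were highest. KLF4 was 4.97-fold lower in ES lines than in fibroblasts (difference -2.31 ± 0.52, adjusted p = 0.0159). Against EBs the difference of -0.59 ± 0.52 did not pass (adjusted p = 0.580), with a 95% interval of -1.79 to 0.61, and with the mean of both KLF4 probe sets it was 0.11 (adjusted p = 0.887). The probe set was Present on all 5 ES arrays with a detection p-value.

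In the authors' deposited table the KLF4 signal log ratio over EBs was -1.5, -1.9 and -1.7 for ORMES6 A, B and C and -0.5 for ORMES7, all with a call of decrease. The corresponding values in the authors' deposited table were -0.6 for ORMES9, -0.3 for ORMES10 and -1.0 for ORMES13, with calls of no change. The second KLF4 probe set was Absent on all 5 ES arrays, with signals of 8.0 to 38.9, against 6.0 in EBs and 44.6 in fibroblasts.

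Among the KLF genes, KLF9 was lower in ES lines than in fibroblasts (difference -2.67 ± 0.63, adjusted p = 0.0183). KLF2 (0.61 ± 0.44, adjusted p = 0.375) and KLF5 (-2.15 ± 1.00, adjusted p = 0.174), which act beside KLF4 in mouse ES cells, did not pass. Of 7 epidermal and epithelial markers, EPCAM (6.88 ± 0.82, adjusted p = 0.000871) and KRT8 (2.92 ± 0.62, adjusted p = 0.0120) were higher in ES lines than in fibroblasts and TP63 was lower (difference -2.35 ± 0.57, adjusted p = 0.0210). This was 2 higher and 1 lower of 7, beside 13% and 7.89% of all genes. KRT5 (0.02 ± 0.37, adjusted p = 0.978), KRT14 (0.14 ± 0.38, adjusted p = 0.840), IVL (0.23 ± 0.33, adjusted p = 0.677) and CDH1 (3.68 ± 1.30, adjusted p = 0.0816) did not pass (limma). The summed signal of the 7 markers was 1122 to 6346 on the ES arrays, 1514 in EBs and 371 in fibroblasts. The summed signal of the fibroblast markers given above was highest on the fibroblast array, as was KLF4. Among the ES arrays the 2 did not peak together. The sum was highest in ORMES13 (17094, with a KLF4 signal of 141.0), and KLF4 was highest in ORMES10 (221.8, with a sum of 14893). Both were lowest on ORMES6 B (a sum of 4053 and a KLF4 signal of 71.5). The part of fibroblast or epithelial cells in the KLF4 level was not tested.

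TERF1 was higher in the ES lines than in both differentiated samples on 1 of its 4 probe sets. On the probe set that stood for it the signal was 1153.0, 1283.9 and 1168.0 on ORMES6 A, B and C, 1737.3 in ORMES7, 2204.7 in ORMES9 and 1958.7 in ORMES10, with 1437.2 in ORMES13, against 357.8 in EBs and 316.0 in fibroblasts. The groups did not overlap, the EB and fibroblast signals were close, and the probe set was Present in fibroblasts (the authors' detection p = 0.000266). The ES lines were 5.08-fold above fibroblasts (2.34 ± 0.35, adjusted p = 0.00246) and 4.51-fold above EBs (2.17 ± 0.35, adjusted p = 0.0154). The other 3 TERF1 probe sets were Absent on all 5 ES arrays, with signals of 0.5 to 23.7 there, 1.9 to 8.4 in EBs and 0.8 to 12.6 in fibroblasts. With the mean of all 4 probe sets in place of the first, TERF1 did not pass against fibroblasts (0.75, adjusted p = 0.115) or EBs (0.71, adjusted p = 0.224).

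TERT had signals near the detection limit. On the probe set that stood for it the signal was 45.4, 21.0 and 52.0 on ORMES6 A, B and C, 12.4 in ORMES7, 45.2 in ORMES9 and 41.8 in ORMES10, with 31.3 in ORMES13, against 21.8 in EBs and 17.0 in fibroblasts. It was Present on 2 of 5 ES arrays, ORMES9 and ORMES10, and the ES arrays overlapped both differentiated arrays. The difference was 0.54 ± 0.44 from fibroblasts (adjusted p = 0.442) and 0.34 ± 0.44 from EBs (adjusted p = 0.715), with 95% intervals of -0.47 to 1.55 and of -0.67 to 1.36. On the second TERT probe set the signal was 14.1 to 55.9 on the ES arrays, 6.2 in EBs and 17.4 in fibroblasts. This probe set lay above EBs on every ES array, Present in ORMES9 only, and its difference of 1.18 ± 0.42 from EBs did not pass (adjusted p = 0.196 over all probe sets).

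Of 14 other telomerase and shelterin genes measured, 6 were higher in ES lines than in fibroblasts, beside 13% of all genes. Against EBs 4 were higher, beside 2.76% of all genes, and none was lower in either comparison. The medians were 0.97 and 0.34, where those over all genes were 0.25 and 0.04. TERF2, the paralogue of TERF1 at the telomere, was higher than in fibroblasts by 2.31 ± 0.37 (adjusted p = 0.00353) and than in EBs by 2.03 ± 0.37 (adjusted p = 0.0223). DKC1, which stabilises the telomerase RNA, was higher by 1.28 ± 0.18 (adjusted p = 0.00171) and 1.64 ± 0.18 (adjusted p = 0.00380), and PINX1, a TERF1 partner that inhibits telomerase in human cells, by 2.11 ± 0.38 (adjusted p = 0.00554) and 1.60 ± 0.38 (adjusted p = 0.0476). The shelterin genes POT1 and ACD passed against fibroblasts, by 1.31 ± 0.23 (adjusted p = 0.00535) and 1.85 ± 0.36 (adjusted p = 0.00850), and the helicase RTEL1 passed against EBs, by 2.24 ± 0.37 (adjusted p = 0.0169). The other shelterin subunits, TINF2 and TERF2IP, passed neither test. TINF2 differed by -0.38 ± 0.45 from fibroblasts (limma, adjusted p = 0.605) and TERF2IP by -0.24 ± 0.29 (adjusted p = 0.614). From EBs they differed by -1.11 ± 0.45 (limma, adjusted p = 0.202) and -1.07 ± 0.29 (adjusted p = 0.0724).

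The wider pluripotency network gave 12 calls of 24 genes measured against fibroblasts, beside 13% of all genes, and 7 against EBs, beside 2.76%. All were higher in ES lines, and the network medians were 2.82 and 1.30 (0.25 and 0.04 over all genes). The largest differences from fibroblasts were those of SOX2 (8.08 ± 0.27, adjusted p = 4.91e-06), LIN28A (7.85 ± 0.34, adjusted p = 1.32e-05), NANOG (7.84 ± 0.37, adjusted p = 1.56e-05) and MYCN (7.24 ± 0.28, adjusted p = 1.11e-05). Against EBs they were those of NANOG (6.47 ± 0.37, adjusted p = 0.000746), POU5F1 (4.86 ± 0.31, adjusted p = 0.000746), LIN28A (4.49 ± 0.34, adjusted p = 0.00139) and VRTN (4.03 ± 0.34, adjusted p = 0.00189). ZSCAN10, a zinc finger factor of mouse ES cells, passed in both comparisons, by 3.22 ± 0.36 against fibroblasts (adjusted p = 0.000587) and by 2.70 ± 0.36 against EBs (adjusted p = 0.00830).

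**Figure D4:**
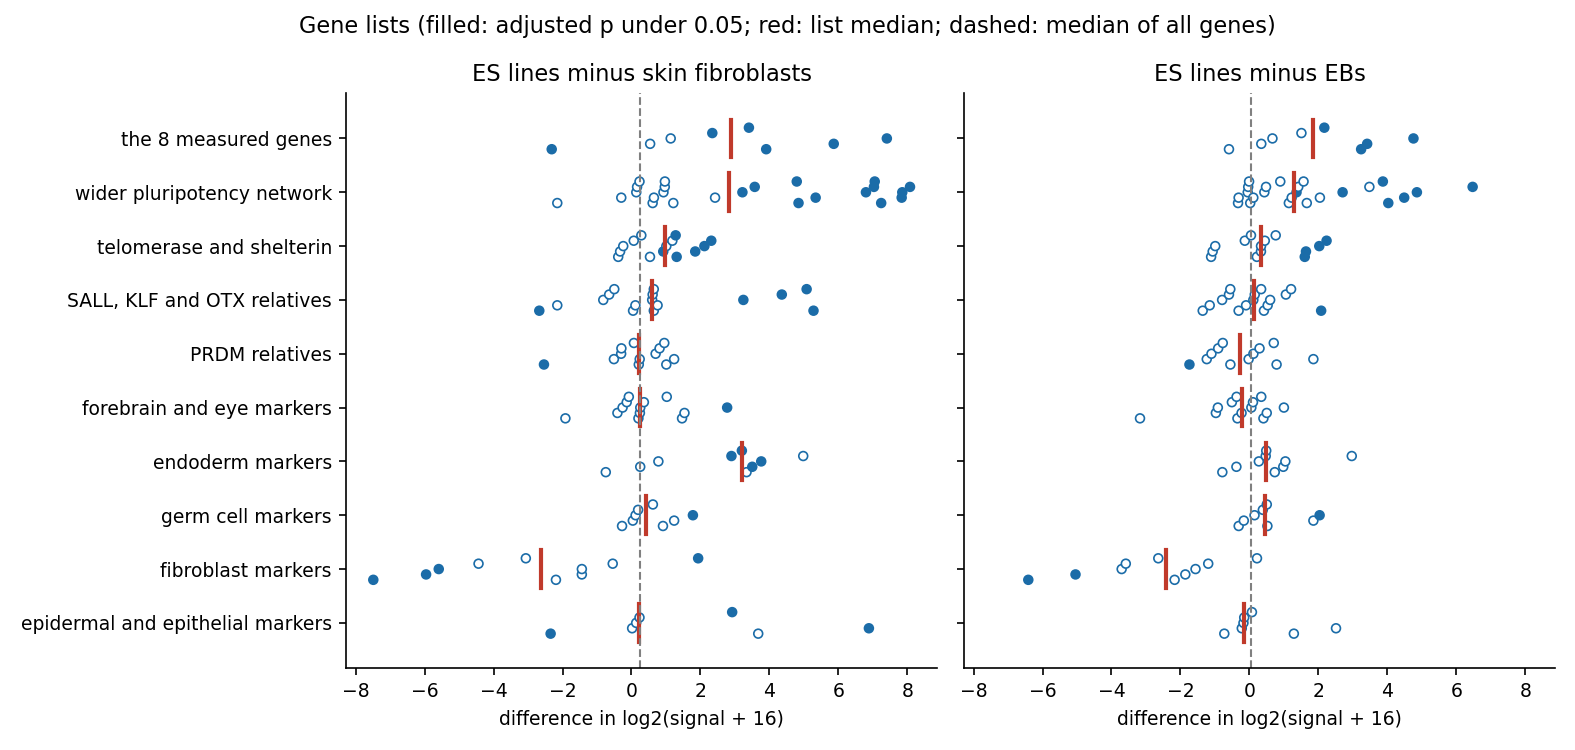
Difference of each gene (points) from fibroblasts (left) and from EBs (right) on the log2(signal + 16) scale, by gene list (rows). Filled points have an adjusted p under 0.05, red bars are list medians, and the dashed line is the median of all genes (0.25 and 0.04). The 8 genes have medians of 2.87 and 1.84, and the wider pluripotency network 2.82 and 1.30.

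The ES lines were then compared with each other. In the F test between lines, whose error comes only from the 3 ORMES6 arrays, none of the 8 genes was called, with adjusted p from 0.265 for OTX2 to 0.677 for TERT (limma), beside 0.197% of all genes. At an unadjusted p under 0.05 there were 4 of the 8 (OTX2, KLF4, TERF1 and DPPA4), beside 13.6% of all genes. Without ORMES6 C, 6 of the 8 were called (all but ZFP42 and TERT), beside 35.8% of all genes. Without ORMES6 A or ORMES6 B none was. ORMES6 C lay above the mean of A and B by 1.04 for DPPA4 and 0.78 for SALL4, and differed by -0.77 for PRDM14, whereas A and B differed by 0.25, 0.01 and 0.14 for these genes.

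The order of the lines differed from gene to gene. ORMES9 was highest for 5 of the 8 (ZFP42, SALL4, OTX2, TERF1 and TERT), ORMES7 for 2 (PRDM14 and DPPA4) and ORMES10 for KLF4. ORMES6 was lowest for 4, ORMES7 for 2 and ORMES13 for 2. The same counts were not made over all genes, so these are given as a description. The range between the highest and the lowest line was 2.21 for DPPA4, 1.80 for PRDM14, 1.45 for OTX2, 1.41 for ZFP42, 1.38 for KLF4, 1.11 for TERT, 0.87 for TERF1 and 0.76 for SALL4, where the median over all genes was 0.83. The SD between the 3 ORMES6 arrays exceeded that between the 5 lines for ZFP42 (0.61, against 0.58 between lines), SALL4 (0.45, against 0.29) and TERT (0.47, against 0.45). For KLF4 it was 0.07, against 0.56 between lines, and for TERF1 0.08, against 0.35.

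**Figure D5:**
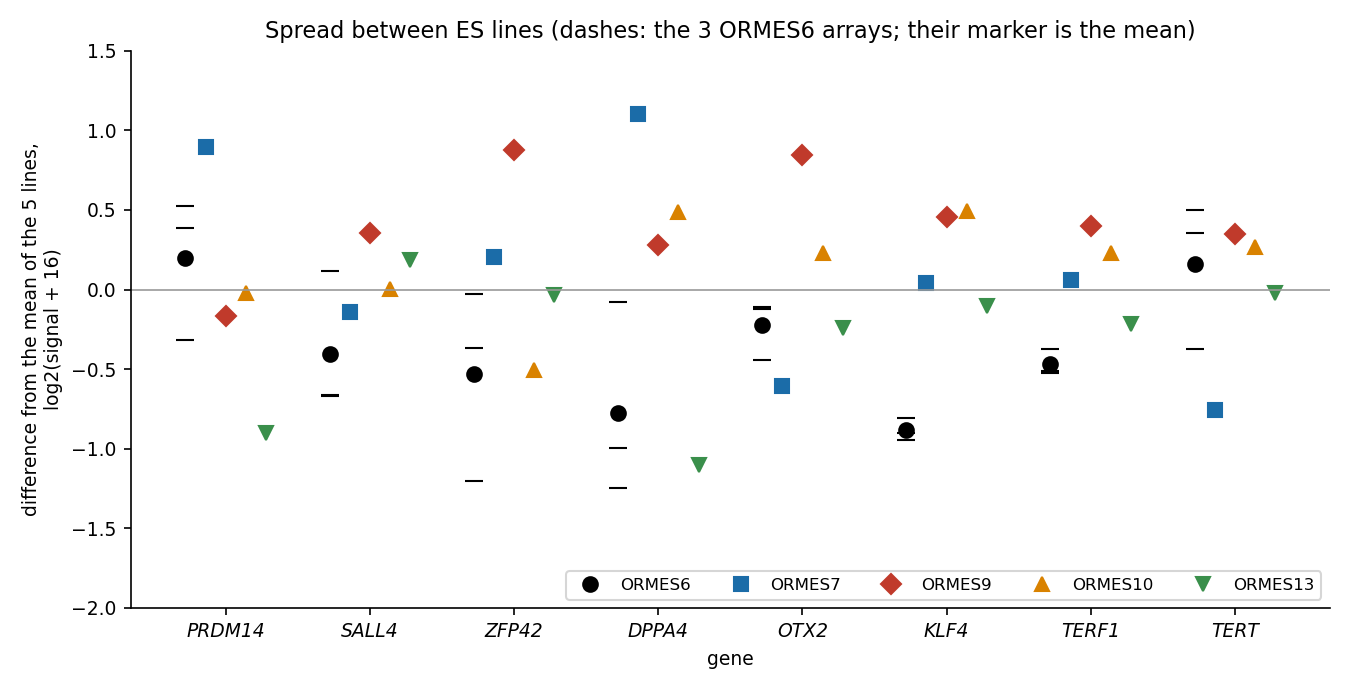
Difference of each ES line from the mean of the 5 lines (vertical axis, log2(signal + 16) scale) for each gene (horizontal axis). Dashes are the 3 ORMES6 arrays and the black circle their mean. The ORMES6 arrays lie close together for KLF4 and TERF1 and spread over 1 unit or more for ZFP42 and DPPA4, and ORMES7 is highest for PRDM14 and DPPA4.

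Between the differentiated samples, single arrays allow no test and the values are given as a description. EBs lay above fibroblasts by 5.90 for OTX2 and 2.62 for SALL4, and the difference was -1.72 for KLF4 and -0.85 for DPPA4. For ZFP42 (0.47), TERT (0.20), TERF1 (0.17) and PRDM14 (-0.01) it was under 0.5 in size, and the median over all genes was 0.20. The signs for TERT and TERF1 turned with quantile normalization and median centring. Over fibroblasts, the authors' deposited table gave signal log ratios on the 5 ES arrays it covers of 8.3 to 9.4 for OTX2, 6.2 to 6.8 for SALL4, 3.5 to 5.6 for DPPA4, 2.8 to 4.9 for PRDM14 and 1.2 to 2.7 for TERF1.

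The authors also deposited lists of the probe sets increased over EBs in each line. DPPA4, OTX2, PRDM14, SALL4 and TERF1 were in all 5 of the authors' deposited tables of this kind, which hold 3695 to 5414 probe sets, and ZFP42 was in that of ORMES9 only. KLF4 and TERT were in none. These lists share the EB array. A further deposited table of 367 probe sets with ontologies held PRDM14, SALL4 and DPPA4. In the authors' deposited table the signal log ratio over EBs ranged over the 7 ES arrays from 4.8 to 7.2 for DPPA4, from 3.0 to 5.2 for PRDM14, from 2.6 to 3.6 for SALL4, from 1.1 to 2.4 for TERF1 and, on its first probe set, from 0.8 to 2.2 for OTX2, each with a call of increase on all 7. For the second OTX2 probe set the authors' deposited table gave -0.5 to 1.2, with a call of increase on ORMES6 A, ORMES6 B, ORMES9 and ORMES10, of no change on ORMES6 C and ORMES13 and of decrease on ORMES7.

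The genes most alike in pattern were named by Pearson r over the 9 arrays, among 3871 genes with a range of at least 2 on the log2(signal + 16) scale and a signal of at least 200 on some array. These r mainly follow the contrast between ES and differentiated arrays, and 3 of the 9 arrays share a line, so they are given as a description. For SALL4 they were HMGA1 (r = 0.996), ORC1L (0.996) and NUSAP1 (0.995). For PRDM14 they were POLR3G (0.987), ESCO2 (0.987) and HAS3 (0.985), and for DPPA4 BUB1 (0.971), ORC6 (0.969) and SSTK-IP (0.967). OTX2 was most like ZIC2 (0.991), SFPQ (0.990) and FLJ10901 (0.990), and TERF1 like ITGA6 (0.986), LOC342892 (0.980) and HLC-8 (0.979). KLF4 was most like SLC1A4 (0.984), RNH (0.974) and MRPS6 (0.973). ZFP42 did not reach that signal and TERT neither that range nor that signal, and their highest r were 0.857 (TBC1D8) and 0.782 (CDK3).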

How the data were processed

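The signals used are linear intensity values per probe set, which the authors deposited after running Affymetrix MAS5, per the labels. The 2% trimmed mean of each array was 200.0, so the signals were kept as scaled. The authors also deposited log2 signal log ratios with change calls, and detection p-values, per the file headers. A detection p-value under 0.05 was taken as Present and over 0.065 as Absent. They cover 1 ORMES6 array and the other 4 lines and, for 12094 probe sets, the fibroblasts. EB detection was not used, nor were 136 further signal and detection columns.

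Of 52865 probe sets, 99 controls and 3 with missing values were left out. Symbols came from the deposited annotation and were updated through NCBI RefSeq (T2T-MMU8v2.0): of 19790 symbols 11161 were current and 465 were updated, 7 of these and both older names of the studied genes by hand. A gene was represented by its brightest probe set (mean over 7 values, 5 lines and both differentiated arrays). Of all probe sets, 11.9% were called against fibroblasts, 2.44% against EBs and 0.104% between lines. A fold against an Absent fibroblast signal was computed against the higher of that signal and the lowest Present signal (6.0). For PRDM14, DPPA4 and OTX2 this was the measured signal, so their folds are estimates and not lower bounds.

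Log2(signal + 16) values were fitted with limma 3.58.1 in R 4.3.3 (lmFit, eBayes with a variance trend) and adjusted by Benjamini-Hochberg over 19751 genes, or over 52763 probe sets for further probe sets. P-values measure the spread between lines, which have 4 residual degrees of freedom, and their number limits the precision. Lines were compared by an F test over the 7 ES arrays. Data for 52763 probe sets and the fibroblast comparison were also simulated from the error model of the fit itself. There 95.7% of changes of size 3 were recovered and 4.30% of calls were false. Smaller changes and the EB comparison were not simulated. Because the simulated lone arrays varied as the lines do, these shares cannot test that assumption. Alternatives covered the offset, normalization, a filter, the variance trend, each line and ORMES6 array left out, the spike level and the choice of probe set.

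All studied genes were named. Genes of 9 lists were named from up to 4 largest calls a list and comparison, or the 2 largest differences where none passed, as were the 3 genes most alike in pattern. Further list genes (such as KLF2, KLF5, KLF9, ZSCAN10, DPPA2, CBFA2T2, TINF2 and TERF2IP, and DKC1 against fibroblasts) were chosen after their values were seen. The genes, lists and tests were chosen with earlier results of these data known. Sequences were not analysed here.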

Additional observations from a re-analysis of the deposited data

Results flagged for a closer look

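Each of the 17 probe sets was examined over the 5 ES lines for a line far from the others, by the gap to the nearest line divided by the range, set against Dixon's critical value, which chance exceeds in about 1 in 20 groups. A TERF1 probe set had ORMES13 low, with a ratio of 0.8. Another TERF1 probe set had ORMES7 high, with a ratio of 0.841. Both are Absent on all 5 ES arrays, with signals of at most 17.1 and 6.3. No probe set that stands for its gene exceeded the critical value.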

How the results depend on the processing

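The 6 calls against fibroblasts held their number under every alternative except the mean of all probe sets of a gene, which left 5, and the 4 calls against EBs except under that mean, which left 3, and the spike covariate, which left 0. The cause of that loss was not tested. Between lines, 0 genes were called under all alternatives but 1, with a range of 0 to 6 when an ORMES6 array was left out. Over all probe sets, 1286 were called against EBs, 500 to 1609 when a line or an ORMES6 array was left out (500 without ORMES10, 682 without ORMES9, 710 without ORMES7 and 810 without ORMES6 C) and 1 with the spike covariate. Between lines 55 were called, 156 after median centring, 101 with the filter on low signals, 3 without the variance trend and 0 to 8364 when an ORMES6 array was left out (8364 without C, 0 without A or without B). Of the 6291 probe sets called against fibroblasts 54.0% were higher in ES lines, 47.5% after quantile normalization, 35.9% after median centring, 63.6% and 45.2% with offsets of 1 and 64, and 64.1% with the filter. Against EBs 37.4% were higher, and 53.9%, 27.5% and 58.9% with the offsets and the filter. Median centring moved the median of all probe sets against fibroblasts to -0.10, where it was 0.19 as reported, and the 8 genes kept their direction against fibroblasts and EBs under it. Directions turned for 2 differences from EBs that were not called: KLF4 (0.11 with the mean of all probe sets, -0.59 as reported) and ZFP42 (-0.61 with the spike covariate, 0.67 as reported). The untested differences of EBs from fibroblasts, with offsets of 1 and 64, were -1.88 and -0.32 for DPPA4 (-0.85 as reported), 7.50 and 4.29 for OTX2 (5.90) and 3.22 and 1.74 for SALL4 (2.62). No paired analysis was possible because the groups share no replicate numbers. With 1 EB and 1 fibroblast array, their own spread is unknown. Low signals limit what can be said of ZFP42 and TERT.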

Other observations

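The nearest named protein-coding genes beside each studied gene in the RefSeq annotation were looked up, chosen by position. Of 16 such neighbours 8 were measured. ZFP64, beside SALL4, was higher in ES lines than in fibroblasts by 1.24 ± 0.27 (limma, adjusted p = 0.0129), beside 13% of all genes, and differed by 0.43 ± 0.27 from EBs (adjusted p = 0.409). No other measured neighbour passed either test: ATP9A, on the other side of SALL4, differed by 0.11 ± 0.23 from fibroblasts (adjusted p = 0.780), and NCOA2, beside PRDM14, by -0.89 ± 0.32 (adjusted p = 0.0866).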
